A study of Mus musculus with 10 samples.

Results

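The 8 genes described here, Icosl, Cd86, Cd80, Cd40, Fas, Cd69, Cd83 and Cd44, encode surface molecules by which B cells show activation and give or receive costimulation, and they were taken by name from the 46959 genes of the deposited count table. All 8 passed the filter on low counts among the 15342 genes tested in spleen, the 16624 tested in femur and the 20204 tested over all 10 libraries. RNA-seq was done on 6 splenic and 4 femoral mouse libraries. The splenic libraries came from CD43- splenocytes, a preparation labelled as splenic B cells, which were kept for 2 days in medium with 10% FCS and 5 µg/ml of lipopolysaccharide (LPS), a bacterial product that activates B cells through Toll-like receptors. In 2 of them wild-type (WT) cells also received 200 ng/ml of SAHA, an inhibitor of histone deacetylases, when the culture began. A further 2 came from KOKI mice, and 2 came from WT cells with LPS alone. Femoral cells were extracted without culture, and each of these libraries holds RNA pooled from 3 mice: 1 pool from KOKI mice that lacked both RAG2 and gamma C, 1 pool from KOKI mice that lacked RAG2, and 2 control pools from mice that lacked RAG2 and gamma C and were not KOKI. All 4 femoral pools therefore carried the RAG2 deficiency, which stops the assembly of antigen receptors, and 3 of them also the loss of gamma C, a chain that several cytokine receptors share. The labels do not spell out KOKI. For the KOKI cultures, LPS is the only agent in the titles and the design text, but SAHA stands beside it in the treatment field, so they were set against both WT groups. The names of the SAHA libraries contain "D3" although the protocol gives 2 days. Apart from the numbers in the titles, nothing states that the libraries of a splenic group came from separate animals. The spread behind each p-value may thus be technical in part. Only the KOKI pair differed in sex-linked transcripts, as given below.

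B cells present antigen to T cells, and the exchange that follows runs through paired surface molecules. CD80 and CD86, members of the B7 family, engage CD28 and CTLA-4 on the T cell, and their relative ICOSL engages ICOS, which follicular helper T cells carry. CD40 on the B cell receives CD40 ligand from the T cell and signals through TRAF adaptors to NF-kB, while FAS is a death receptor that activated B cells gain. CD69 is an early activation antigen that keeps lymphocytes in tissue by drawing the egress receptor S1PR1 off the surface. CD83 marks activated B cells and dendritic cells and protects MHC class II and CD86 from the ubiquitin ligase MARCH1, and CD44 is an adhesion receptor for hyaluronan. LPS raises several of these molecules on B cells without T cell help. In the mm10 coordinates of the deposited table, the B7 ligand genes are Icosl at chr10:78069360-78079525 (plus strand), Cd86 at chr16:36603869-36666081 (minus) and Cd80 at chr16:38458933-38486933 (plus). The receptor genes are Cd40 at chr2:165055627-165072948 (plus) and Fas at chr19:34290659-34327770 (plus). Cd69 lies at chr6:129267325-129275436 (minus), Cd83 at chr13:43785107-43803130 (plus) and Cd44 at chr2:102811141-102901665 (minus).

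Total counts ran from 18614742 to 29314068 per library. The library KOKI LPS replicate 2 stood apart in having 8499 counts of Xist, a transcript of female cells, against at most 9 in each of the other 9 libraries. Of Ddx3y, a gene of the Y chromosome, it had only 20 counts. KOKI LPS replicate 1 had 3610, and the splenic WT cultures had 3183 to 5868. The KOKI pair thus came from different animals of unlike sex, while all WT cultures had the male pattern. The part of sex in the KOKI differences was not tested. In SAHA replicate 2, 451 of 1292 olfactory receptor genes had counts, against 126 in SAHA replicate 1 and at most 47 in each other library. Levels are given as CPM, counts scaled to the size of the library. The mature B cell list of 8 markers summed to 3149 to 3914 CPM in SAHA cultures, 2442 to 2646 CPM in KOKI cultures and 2554 to 2721 CPM in WT LPS cultures, but to only 11.8 to 15.1 CPM in the femoral libraries. There Cr2 was at 0 counts in all 4 pools and Ms4a1 reached at most 0.0946 CPM, while Cd79b (8.89 to 10.2 CPM) and Cd22 (2.69 to 4.59 CPM) made up most of the sum, so the list was low but not absent. The same pools held 13169 to 20429 CPM of 10 neutrophil markers, 9253 to 12380 CPM of 8 erythroid markers and 5266 to 6955 CPM of 10 macrophage and monocyte markers.

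The promoters of Icosl, Fas and Cd44 are shown because Icosl and Fas varied together over the splenic libraries and Cd44 varied opposite to them, as described further on. Each is the 250 bases before the gene's start in RefSeq on GRCm38.p6, read 5′ to 3′ along the gene. For Icosl that start lies 8 bases inside the gene as deposited, so the last 8 bases printed belong to the deposited gene, and for the others the starts are the same. Of the 8 genes, 4 matched an entry: Icosl, Fas, Cd44 and Cd80. Capitals mark matches to AP-1 (TGANTCA) or the PU.1 core (GAGGAA, which reads TTCCTC on the other strand). The regions are chr10:78069118-78069367 on the plus strand for Icosl, chr19:34290409-34290658 on the plus strand for Fas and chr2:102901666-102901915 on the minus strand for Cd44.
Icosl: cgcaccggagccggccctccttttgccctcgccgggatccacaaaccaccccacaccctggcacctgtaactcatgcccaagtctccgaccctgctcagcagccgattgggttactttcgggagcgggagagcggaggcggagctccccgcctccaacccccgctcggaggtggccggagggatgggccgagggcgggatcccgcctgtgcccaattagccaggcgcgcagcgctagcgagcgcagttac
Fas: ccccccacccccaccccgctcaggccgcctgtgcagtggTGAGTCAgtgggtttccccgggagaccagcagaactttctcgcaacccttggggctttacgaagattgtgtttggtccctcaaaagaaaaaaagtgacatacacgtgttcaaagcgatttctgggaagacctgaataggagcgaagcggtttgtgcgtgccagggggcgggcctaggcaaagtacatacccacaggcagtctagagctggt
Cd44: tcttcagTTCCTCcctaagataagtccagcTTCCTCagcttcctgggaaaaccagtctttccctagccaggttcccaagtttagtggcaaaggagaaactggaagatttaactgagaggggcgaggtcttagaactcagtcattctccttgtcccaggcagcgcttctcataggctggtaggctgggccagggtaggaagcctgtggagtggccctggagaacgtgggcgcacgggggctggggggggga
The search covered both strands and also the IRF element (GAAANNGAA) and the NF-kB consensus. The Fas window held 1 AP-1 match, 211 to 205 bases before the start. The Cd44 window held 2 matches to the PU.1 core, at 243 to 238 and 220 to 215 bases before the start, and that of Cd80 1 AP-1 match at 42 to 36 bases. The Icosl window held none of the 4 motifs, and its GC content was 68.8%, against 56.4% for Fas, 56.4% for Cd44, 52.8% for Cd80 and a median of 52.4% over all promoters. Among 32851 promoter windows of the same length, 6.75% held AP-1, 23.3% the PU.1 core, 7.13% the IRF element and 3.9% the NF-kB consensus, and neither of the last 2 was found in the 4 windows.

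**Figure D1:**
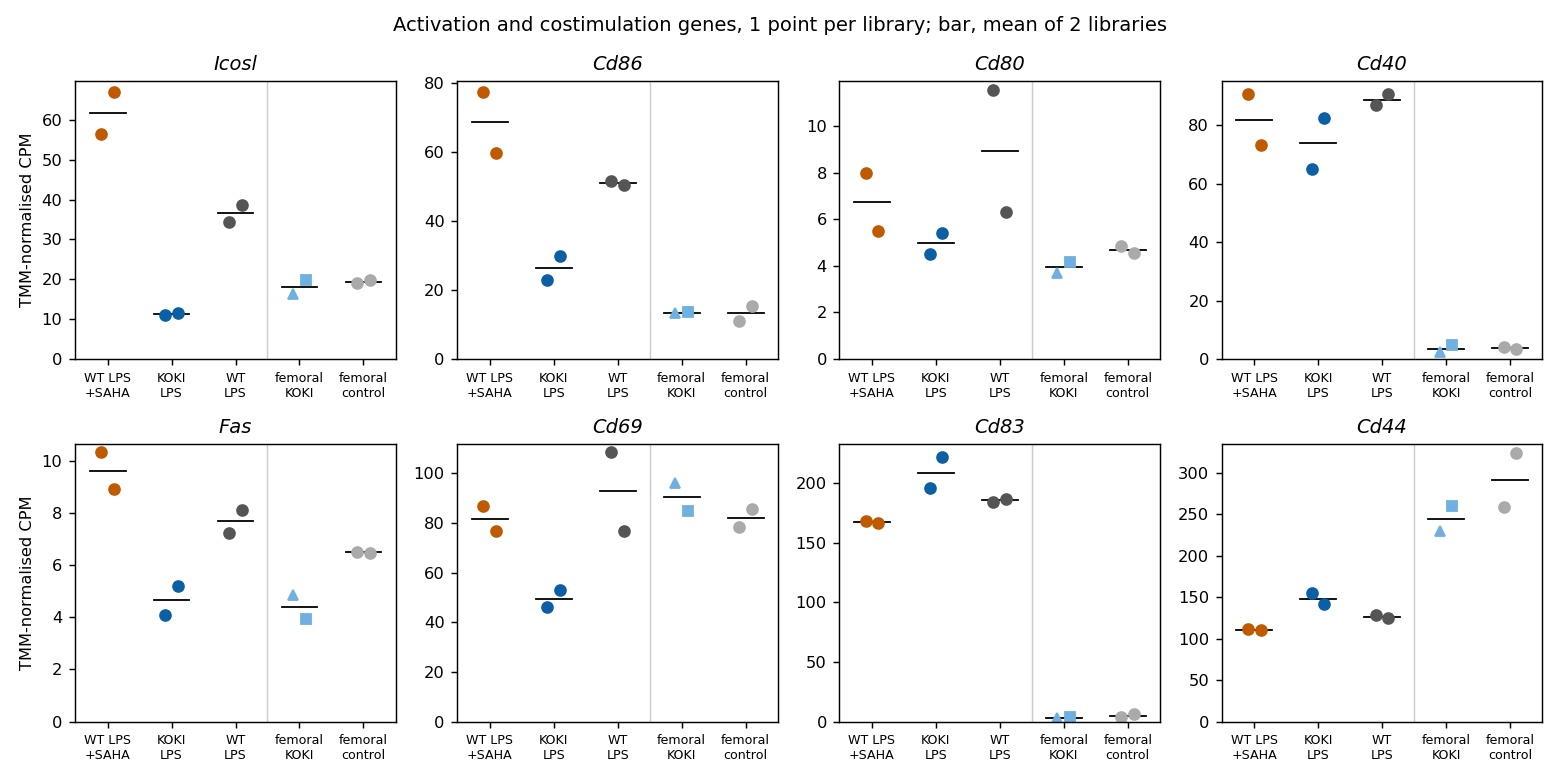
Level of each of the 8 genes in every library, as CPM on the TMM scale of all 10 libraries (linear axes from 0). Each point is 1 library and each bar the mean of 2; in the femoral KOKI group the square is the pool that lacked RAG2 and gamma C and the triangle the pool that lacked RAG2. Icosl shows 3 separate splenic levels, highest in SAHA cultures and lowest at 11.1 and 11.6 CPM in KOKI cultures, and Cd83 and Cd40 are near the floor in all femoral pools.

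Ranked by level per gene length (RPKM on the same TMM scale), Cd83 led in every splenic group, with 78.0 ± 0.69 RPKM in SAHA cultures, 97.5 ± 8.69 RPKM in KOKI cultures and 86.6 ± 0.86 RPKM in WT LPS cultures (mean ± SD, n = 2 each). In SAHA cultures Cd40 (24.0 RPKM), Icosl (22.4 RPKM), Cd86 (18.7 RPKM) and Cd44 (16.4 RPKM) followed, each overlapping the next, ahead of Cd69 (12.6 RPKM), Fas (5.34 RPKM) and Cd80 (3.96 RPKM). In KOKI cultures Cd44 (21.9 RPKM) and Cd40 (21.7 RPKM) overlapped, as did Cd69 (7.61 RPKM) and Cd86 (7.20 RPKM), while Icosl (4.13 RPKM) stood alone below them and above the overlapping Cd80 (2.92 RPKM) and Fas (2.58 RPKM). In WT LPS cultures Cd40 (26.1 RPKM) and Cd44 (18.7 RPKM) came next and were separate from their neighbours. There Cd69 (14.3 RPKM), Cd86 (13.9 RPKM) and Icosl (13.3 RPKM) overlapped, and so did Cd80 (5.25 RPKM) and Fas (4.26 RPKM) in the last places. The counts behind these levels ran from 58 for Cd40 in a femoral KOKI pool to 10948 for Cd44 in a femoral control pool. By mean, Icosl was thus at place 3 of 8 in SAHA cultures and at place 6 in KOKI and in WT LPS cultures.

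The first comparison asks what SAHA added to LPS stimulation in WT cells. Icosl rose: it had 56.4 and 66.9 CPM in SAHA cultures, against 34.5 and 38.7 CPM in WT LPS cultures. Both SAHA libraries were above both WT LPS libraries. The change was 0.78 ± 0.15 on the log2 scale (SE), or 1.72-fold, with an adjusted p of 0.034 in edgeR's quasi-likelihood test. Icosl was the only one of the 8 genes to pass, 1 of 8, beside 4.64% of all genes tested (712 genes, of which 146 rose and 566 fell). The median change of the 8 genes was -0.10, against 0.02 over all genes. The call was lost in every fit that left out 1 of the 6 splenic libraries, with a log2 change of 0.64 to 0.89 in these fits. Each of them left 1 group with 1 library and called fewer of all genes than the main fit, so such losses were not particular to Icosl. The Icosl call was also lost with only the 4 compared libraries in the fit (adjusted p = 0.0708, edgeR), where 0 of all genes passed. With all 10 libraries it was lost too (adjusted p = 0.0612, edgeR), and there 211 of all genes passed. Of 14 alternatives in all, 8 lost the call and 6 kept it, among them DESeq2 and the fits that paired WT libraries by number.

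Its relatives behaved less uniformly under SAHA. Cd86 had 77.2 and 59.8 CPM in SAHA cultures, against 51.5 and 50.5 CPM in WT LPS cultures. The groups did not overlap, but the change of 0.45 ± 0.18 log2 did not pass (adjusted p = 0.156, edgeR). Cd80 had 7.97 and 5.50 CPM in SAHA cultures, against 11.5 and 6.32 CPM in WT LPS cultures, which overlapped, so the 3 B7 ligands did not share a direction. Its change was -0.37 ± 0.34 log2 and turned to 0.10 without WT LPS replicate 1.

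Of the receptors, Fas had 10.3 and 8.91 CPM in SAHA cultures, against 7.24 and 8.11 CPM in WT LPS cultures. The groups did not overlap, and the change of 0.35 ± 0.24 log2 did not pass (adjusted p = 0.406, edgeR). Cd40 had 90.5 and 73.2 CPM in SAHA cultures, against 86.8 and 90.7 CPM in WT LPS cultures, with overlap and a change of -0.09 ± 0.16 log2. Neither receptor passed, and nor did the other activation molecules, whose changes were -0.15 ± 0.18 log2 for Cd69, -0.12 ± 0.14 log2 for Cd83 and -0.16 ± 0.12 log2 for Cd44. Cd69 overlapped between the groups. Cd83 had 168 and 166 CPM in SAHA cultures, against 184 and 187 CPM in WT LPS cultures, and Cd44 had 112 and 111 CPM in SAHA cultures, against 129 and 125 CPM in WT LPS cultures. For these 2 genes the groups were narrow and did not overlap, yet the differences did not pass. In all, 5 of the 8 genes had groups that did not overlap, and 56.2% of all tested genes did not overlap either.

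Several lists of cell type markers had higher sums in SAHA cultures than in WT LPS cultures. All 8 mature B cell markers had positive changes, and 2 passed, Fcer2a at 1.19 ± 0.12 log2 and Cr2 at 1.24 ± 0.15 log2, both named after their values were seen. The macrophage and monocyte list summed to 50.5 to 61.3 CPM in SAHA cultures, against 29.9 to 32.6 CPM in WT LPS cultures, and all 8 of its tested markers had positive changes. Of these Adgre1 passed (0.92 ± 0.18 log2, adjusted p = 0.0378, edgeR) and Lyz2 was at 0.94 ± 0.22 log2 (adjusted p = 0.0518), both named after their values were seen. In splenic libraries Adgre1 reached 405 counts and Lyz2 414, while Fcgr1 was at 2 counts or fewer in each. T cell markers summed to 49.2 to 62.7 CPM in SAHA cultures, against 41.6 to 44.8 CPM in WT LPS cultures. In all splenic libraries this sum was mostly Cd2 (27.8 to 41.4 CPM) and Lck (6.50 to 15.9 CPM). Each other T cell marker reached at most 1.22 CPM, so the sum is no measure of T cell RNA. NK cell markers summed to 1.78 to 2.53 CPM in SAHA cultures, against 0.856 to 1.02 CPM in WT LPS cultures. None of either list was called. The dendritic cell list, mostly Flt3, went the other way, at 24.1 to 33.5 CPM in SAHA cultures against 33.4 to 37.7 CPM in WT LPS cultures. Of its 6 tested markers 3 had a positive change, and none was called. The part of these markers, or of the olfactory receptor counts, in the Icosl result was not tested. In such bulk samples, fewer cells of a type and less RNA per cell cannot be told apart.

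The second comparison asks how KOKI B cells differ from WT B cells under LPS. Icosl, Cd86 and Cd69 fell and none of the 8 rose: 3 of 8 passed, beside 4.08% of all genes tested (626 genes, of which 345 rose and 281 fell). Icosl had 11.1 and 11.6 CPM in KOKI cultures, against 34.5 and 38.7 CPM in WT LPS cultures. The 2 KOKI libraries lay within 1 CPM of each other and far under both WT libraries. Its change of -1.66 ± 0.15 log2 (adjusted p = 0.00115, edgeR) was a 3.17-fold lower level and ranked 54th by p among all genes tested. This call held in all 12 alternatives tried, with changes of -1.76 to -1.56 log2. The Icosl promoter window is the one of the 3 shown above with no match, and each of the 4 motifs was in at most 23.3% of all windows. Any part of the promoter sequence in the fall was not tested.

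Cd86 had 22.8 and 29.9 CPM in KOKI cultures, against 51.5 and 50.5 CPM in WT LPS cultures. The highest KOKI library was well under the lowest WT library, and the change was -0.93 ± 0.18 log2, a 1.91-fold lower level (adjusted p = 0.0291, edgeR). The call was lost without WT LPS replicate 1 (adjusted p = 0.105), WT LPS replicate 2 (0.0956) or KOKI replicate 1 (0.161). Cd80 had 4.50 and 5.43 CPM in KOKI cultures, against 11.5 and 6.32 CPM in WT LPS cultures. The groups did not overlap, but the WT pair was wide, and the change of -0.82 ± 0.34 log2 did not pass (adjusted p = 0.266, edgeR). All 3 B7 ligands had lower means in KOKI cultures, with a test passed by Icosl and Cd86.

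Cd69 had 46.0 and 53.0 CPM in KOKI cultures, against 109 and 76.8 CPM in WT LPS cultures. Both KOKI libraries were below both WT libraries, and the change was -0.88 ± 0.18 log2, a 1.84-fold lower level (adjusted p = 0.0346, edgeR). It was lost without WT LPS replicate 1 (adjusted p = 0.157), KOKI replicate 1 (0.194) or KOKI replicate 2 (0.109). S1pr1, the receptor that CD69 draws off the cell surface, fell as well, with 36.7 ± 4.42 CPM in KOKI cultures and 74.5 ± 2.59 CPM in WT LPS cultures (adjusted p = 0.00649, edgeR).

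Fas had 4.09 and 5.20 CPM in KOKI cultures, against 7.24 and 8.11 CPM in WT LPS cultures. The groups did not overlap, and the change of -0.71 ± 0.25 log2 did not pass (adjusted p = 0.187, edgeR). Cd40 had 65.1 and 82.4 CPM in KOKI cultures, against 86.8 and 90.7 CPM in WT LPS cultures, a small gap of -0.24 ± 0.16 log2 that did not pass. Cd83 and Cd44 were the 2 genes with higher means in KOKI cultures. Cd83 had 196 and 222 CPM in KOKI cultures, against 184 and 187 CPM in WT LPS cultures (0.19 ± 0.14 log2, adjusted p = 0.546, edgeR). Cd44 had 156 and 141 CPM in KOKI cultures, against 129 and 125 CPM in WT LPS cultures (0.25 ± 0.12 log2, adjusted p = 0.354, edgeR). Neither change passed, although the groups were apart for both genes.

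The groups did not overlap for any of the 8 genes, while 47.2% of all tested genes did not overlap, and the median change of the 8 was -0.76 against -0.02 over all genes. The mature B cell list summed to 2442 to 2646 CPM in KOKI cultures and 2554 to 2721 CPM in WT LPS cultures, ranges that overlap, and none of its 8 markers passed. The macrophage and monocyte list summed to 30.3 to 31.4 CPM in KOKI cultures and 29.9 to 32.6 CPM in WT LPS cultures, but its markers went apart. Itgam rose (2.71 ± 0.30 log2, adjusted p = 0.00246, edgeR) and Lyz2 fell (-1.41 ± 0.23 log2, adjusted p = 0.0154, edgeR), both named after their values were seen. Of its 8 tested markers 2 had a positive change, and the list's median was -0.88 log2. The dendritic cell list matters because dendritic cells carry CD80, CD86 and CD83. It summed to 38.6 to 39.4 CPM in KOKI cultures and 33.4 to 37.7 CPM in WT LPS cultures. In all splenic libraries this sum was mostly Flt3 (19.7 to 33.8 CPM). Each other dendritic cell marker reached at most 2.78 CPM there, so the sum is no measure of dendritic cell RNA. T cell markers, again mostly Cd2 and Lck, summed to 37.6 to 39.2 CPM in KOKI cultures and 41.6 to 44.8 CPM in WT LPS cultures. Of the 8 tested T cell markers 1 had a positive change, the median was -1.37 log2 and none was called. NK cell markers summed to 0.230 to 0.322 CPM in KOKI cultures and 0.856 to 1.02 CPM in WT LPS cultures, with none of 2 tested markers called. The part of these cell types in the fall of Icosl, Cd86 and Cd69 was not tested. Without KOKI replicate 2, the library with Xist, the change was -1.70 log2 for Icosl (adjusted p = 0.00796), -1.15 for Cd86 (0.0439) and -0.99 for Cd69 (0.109), all from edgeR.

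**Figure D2:**
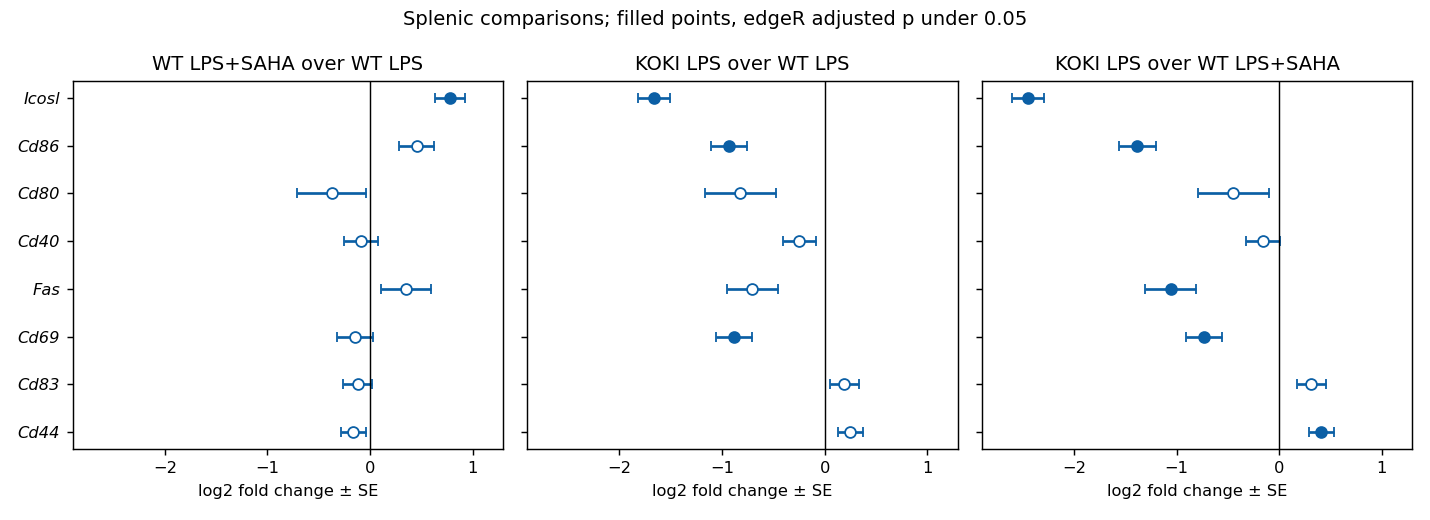
Log2 fold change ± SE of the 8 genes in the 3 splenic comparisons, from 1 edgeR fit of the 6 splenic libraries in 3 groups of 2. Filled points have an adjusted p under 0.05. Icosl is filled in all 3 panels, at 0.78 in SAHA over WT LPS, -1.66 in KOKI over WT LPS and -2.45 in KOKI over SAHA.

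KOKI cultures were also set directly against SAHA cultures, because of the conflicting treatment label. This contrast is the test of whether the first 2 comparisons, which share the WT LPS libraries, differ. Here 5 of 8 genes passed, 4 lower and 1 higher in KOKI cultures, beside 23.7% of all genes tested (3639 genes). Icosl differed most: 11.1 and 11.6 CPM in KOKI cultures, against 56.4 and 66.9 CPM in SAHA cultures, a 5.46-fold lower level (-2.45 ± 0.16 log2, adjusted p = 0.000165, edgeR). It ranked 18th by p among all genes tested. Cd86 fell too, with 22.8 and 29.9 CPM in KOKI cultures, against 77.2 and 59.8 CPM in SAHA cultures (-1.38 ± 0.18 log2, adjusted p = 0.0021, edgeR). These 2 calls held in all 12 alternatives.

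Fas fell to 4.09 and 5.20 CPM in KOKI cultures, against 10.3 and 8.91 CPM in SAHA cultures (-1.06 ± 0.25 log2, adjusted p = 0.0202, edgeR). Cd69 fell to 46.0 and 53.0 CPM in KOKI cultures, against 86.8 and 76.8 CPM in SAHA cultures (-0.73 ± 0.18 log2, adjusted p = 0.0225, edgeR). The groups were apart for both genes, though each call was lost without SAHA replicate 1 or KOKI replicate 1, and that of Cd69 also without KOKI replicate 2 (adjusted p = 0.0658). Cd44 was the 1 gene that rose, with 156 and 141 CPM in KOKI cultures, against 112 and 111 CPM in SAHA cultures (0.41 ± 0.12 log2, adjusted p = 0.0465, edgeR), and its call was lost in 10 of 12 alternatives. Cd83 was at 0.31 ± 0.14, Cd40 at -0.16 ± 0.16 and Cd80 at -0.45 ± 0.35 log2, and none of these passed. Only Cd40 overlapped between these groups, so 7 of 8 genes were apart, while 65.6% of all tested genes were. The mature B cell list was lower in KOKI cultures here, at 2442 to 2646 CPM against 3149 to 3914 CPM in SAHA cultures, with 3 of 8 markers called lower, and the macrophage and monocyte list was at 30.3 to 31.4 CPM in KOKI cultures against 50.5 to 61.3 CPM in SAHA cultures, with 4 of 8 tested markers called lower and 1 higher. T cell markers, again mostly Cd2 and Lck, were at 37.6 to 39.2 CPM in KOKI cultures against 49.2 to 62.7 CPM in SAHA cultures. The part of these 3 lists in these differences was not tested.

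In the femur, KOKI pools were compared with control pools, with both KOKI backgrounds in 1 group. None of the 8 genes passed in edgeR, none had an unadjusted p under 0.05, and DESeq2 called none, beside 0.0301% of all genes tested by edgeR (5 genes). Icosl had 19.8 CPM in the KOKI pool without RAG2 and gamma C and 16.2 CPM in that without RAG2, against 19.1 and 19.7 CPM in control pools, with overlap and a change of -0.11 ± 0.20 log2. Cd86 had 13.6 and 13.3 CPM in the same KOKI pools, against 11.1 and 15.3 CPM in control pools, also with overlap. Fas had 3.92 and 4.86 CPM in KOKI pools, against 6.51 and 6.46 CPM in control pools (-0.56 ± 0.30 log2, adjusted p = 0.407, edgeR). Both KOKI pools were under both controls for Fas, for Cd80 and for Cd83, 3 of 8 genes, while 49.3% of all tested genes did not overlap. Cd83 had 3.56 and 3.15 CPM in KOKI pools, against 3.66 and 6.67 CPM in control pools, so 1 control pool sets most of that gap. Cd69 had 84.8 and 95.9 CPM in KOKI pools, against 78.5 and 85.7 CPM in control pools, and both groups overlapped. Cd44 had 260.1 and 229.9 CPM in KOKI pools, against 259 and 325 CPM in control pools, again with overlap. Each KOKI background was 1 pool, so the effect of gamma C and the spread between pools cannot be told apart.

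Whether the KOKI difference itself differed between spleen and femur was tested with an interaction term over all 10 libraries. Icosl passed, 1 of 8 genes, beside 0.846% of all genes tested (171 genes). Its splenic change minus its femoral change was -1.57 ± 0.25 log2 (adjusted p = 0.0167, edgeR): in that fit the KOKI change was -1.69 log2 in spleen and -0.12 log2 in femur. The call was lost without WT LPS replicate 2 (adjusted p = 0.082), KOKI LPS replicate 1 (0.0885) or KOKI LPS replicate 2 (0.0849). Cd69 (-1.04 ± 0.28 log2, adjusted p = 0.117) and Cd86 (-0.98 ± 0.31 log2, adjusted p = 0.199) did not pass. Culture with LPS, the RAG2 deficiency and the cell types present differ along with the tissue and cannot be told apart from it. The same holds for the age of the mice and for the loss of gamma C in most femoral pools.

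The levels themselves differed widely between cultured splenic cells and femoral cells. Of the 8 genes, 4 were higher and 1 was lower in WT LPS cultures than in femoral control pools, beside 42.4% of all genes tested (8568 genes). Cd83 had 184 and 187 CPM in WT LPS cultures, against 3.66 and 6.67 CPM in femoral control pools, a 35.9-fold higher level (5.17 ± 0.28 log2, adjusted p = 5.81e-08, edgeR). Cd40 had 86.8 and 90.7 CPM in WT LPS cultures, against 4.10 and 3.47 CPM in femoral control pools, a 23.4-fold higher level (4.55 ± 0.22 log2, adjusted p = 2.71e-08, edgeR). Both genes stayed under 7 CPM in all 4 femoral pools. Cd86 was 3.86-fold higher (1.95 ± 0.22 log2, adjusted p = 2.66e-05) and Icosl 1.88-fold higher (0.91 ± 0.17 log2, adjusted p = 0.00128) in WT LPS cultures. The Icosl level of KOKI cultures, 11.1 and 11.6 CPM, lay below that of all 4 femoral pools, which ran from 16.2 to 19.8 CPM.

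Cd44 ran the other way: 129 and 125 CPM in WT LPS cultures, against 259 and 325 CPM in femoral control pools, a 2.30-fold lower level (-1.20 ± 0.19 log2, adjusted p = 0.000314, edgeR). Cd69 had 109 and 76.8 CPM in WT LPS cultures, against 78.5 and 85.7 CPM in femoral control pools, and overlapped. Cd80 (0.93 ± 0.37 log2, adjusted p = 0.0637) and Fas (0.24 ± 0.29 log2, adjusted p = 0.536) did not pass in edgeR. The 5 calls held in all 9 alternatives, and Cd80 joined them without WT LPS replicate 2. By level per length, femoral control pools ranked Cd44 (43.1 RPKM) first, then Cd69 (12.6 RPKM) and Icosl (7.05 RPKM), each apart from the next. Cd86 (3.61 RPKM) and Fas (3.60 RPKM) overlapped, as did Cd80 (2.76 RPKM) and Cd83 (2.41 RPKM), and Cd40 came last at 1.11 RPKM. Since the femoral pools held next to no mature B cell RNA and much myeloid RNA, these differences set unlike cell mixtures against each other. Other scalings lowered the median over all genes by 0.15 (RLE) and 0.16 (DESeq2) log2 in this comparison alone, and the 5 calls kept their direction.

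**Figure D3:**
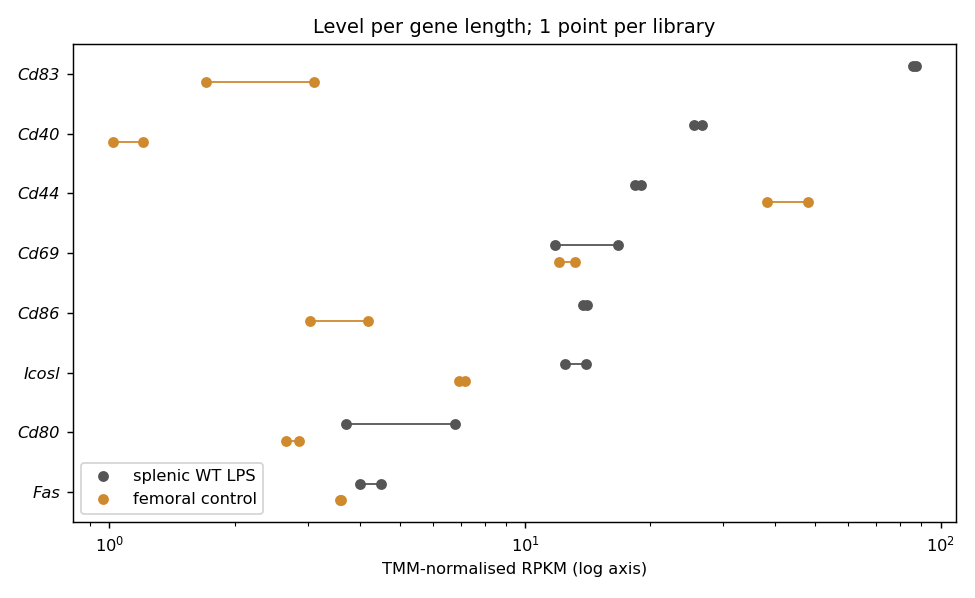
Level per gene length of the 8 genes in splenic WT LPS cultures (dark) and femoral control pools (orange), as TMM-normalised RPKM on a log axis, with 1 point per library and a line joining the 2 libraries of a group. Cd83 and Cd40 lie far apart between tissues, Cd44 is higher in femur, and Cd69 overlaps.

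Genes around these 8 molecules were followed in 7 lists, chosen by function and holding none of the 8. Their counts stand beside the 4.64% of all tested genes called under SAHA, the 4.08% called in KOKI over WT LPS and the 23.7% called in KOKI over SAHA. The list of B7 family and T cell partners counts 9 genes, 7 of them tested in spleen. Under SAHA 1 fell: Ctla4, a receptor for CD80 and CD86, had 2.82 ± 0.96 CPM in SAHA cultures and 9.32 ± 1.81 CPM in WT LPS cultures (-1.71 ± 0.30 log2, adjusted p = 0.0303, edgeR). In KOKI cultures 1 fell and 1 rose. Pdcd1lg2, which encodes the PD-1 ligand PD-L2, had 1.46 ± 0.21 CPM in KOKI cultures and 5.59 ± 1.12 CPM in WT LPS cultures (-1.90 ± 0.37 log2, adjusted p = 0.0309, edgeR). The gene listed as 4632428N05Rik, a synonym of the B7 relative Vsir, had 27.8 ± 0.76 CPM in KOKI cultures and 12.9 ± 2.31 CPM in WT LPS cultures (1.13 ± 0.18 log2, adjusted p = 0.0121, edgeR). Against SAHA cultures, KOKI cultures had 2 of these genes higher, Ctla4 and 4632428N05Rik, and 2 lower, Pdcd1lg2 and Cd276. Of these, Cd276 was near the floor, with 0.97 ± 0.65 CPM in SAHA cultures and 0.021 ± 0.029 CPM in KOKI cultures. Its call was lost in 6 of 12 alternatives.

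In the TNF and TNF receptor list, 21 of 23 genes were tested. Tnf, the cytokine itself, rose under SAHA and fell in KOKI cultures: it had 42.5 ± 4.44 CPM in SAHA cultures and 9.37 ± 1.45 CPM in KOKI cultures, against 19.7 ± 2.96 CPM in WT LPS cultures (1.14 ± 0.18 log2, adjusted p = 0.026, and -1.05 ± 0.19 log2, adjusted p = 0.0224, edgeR). Tnfrsf18, which encodes the costimulatory receptor GITR, rose under SAHA to 7.74 ± 0.65 CPM, against 2.02 ± 0.99 CPM in WT LPS cultures. Tnfrsf26 fell in KOKI cultures by 1.04 on the log2 scale (adjusted p = 0.0483, edgeR), a call that was lost in 8 of 12 alternatives. In KOKI over SAHA, 4 of the 21 genes were lower, Lta, Tnf, Tnfrsf26 and Ltb, and none was higher, a smaller share than the 23.7% of all genes called there.

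Downstream of CD40, 23 of 24 genes of the NF-kB list were tested. None passed under SAHA, and 1 passed in KOKI cultures: Traf5, an adaptor of CD40 signalling, fell to 14.3 ± 1.20 CPM, against 27.4 ± 3.03 CPM in WT LPS cultures (-0.92 ± 0.16 log2, adjusted p = 0.0199, edgeR). Against SAHA cultures, KOKI cultures had 4 of 23 lower (Traf5, Rel, Ikbkb and Nfkbie) and 1 higher, again below the 23.7% over all genes. Of the list's 23 genes, 5 had a positive change in KOKI cultures, and the list's median was -0.17 against -0.02 over all genes. Cd40lg, the ligand, was too low to be tested.

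Of the Fas death pathway, 14 of 15 genes were tested and none passed under SAHA, with a median of -0.21 log2.

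MARCH ligases and MHC class II genes bear on CD86, whose surface level MARCH1 lowers. March1 fell in KOKI cultures to 56.5 ± 9.14 CPM, against 109 ± 16.8 CPM in WT LPS cultures (-0.92 ± 0.18 log2, adjusted p = 0.0284, edgeR), so its transcript fell along with that of Cd86. Under SAHA none of the 12 genes passed, though 11 had a positive change and the median was 0.19. In KOKI cultures 11 of 12 had a negative change with a median of -0.30, and March1 was the 1 that passed. Against SAHA cultures, 6 of 12 were lower in KOKI cultures, led by March1, H2-Ob, H2-DMb2 and H2-Oa, and none was higher.

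In a list of 21 other activation genes, all tested, 2 fell under SAHA. Tfrc, the transferrin receptor, had 231 ± 25.2 CPM in SAHA cultures and 481 ± 56.7 CPM in WT LPS cultures, and Slc7a5, an amino acid transporter, had 35.7 ± 5.46 CPM in SAHA cultures and 78.3 ± 24.1 CPM in WT LPS cultures. In KOKI cultures the immediate early genes Fos and Jun rose, Jun to 49.0 ± 1.63 CPM against 24.3 ± 0.12 CPM in WT LPS cultures (1.04 ± 0.13 log2, adjusted p = 0.00541, edgeR). In KOKI over SAHA, 7 were higher, led by Tfrc, Slc7a5 and Jun, and Nr4a1 was lower. Of the egress, homing and adhesion list, 22 of 25 genes were tested. Itga4, an integrin chain, rose in both comparisons, with 241 ± 16.5 CPM in SAHA cultures and 258 ± 38.8 CPM in KOKI cultures, against 152 ± 2.95 CPM in WT LPS cultures. Both comparisons share these WT LPS libraries. The call was lost in 8 of 14 alternatives under SAHA (adjusted p = 0.0465, edgeR) and in 5 of 12 in KOKI cultures (adjusted p = 0.0318, edgeR). Hmmr, a second hyaluronan receptor beside CD44 and a gene of dividing cells, fell to 48.9 ± 5.87 CPM in SAHA cultures and rose to 162 ± 8.07 CPM in KOKI cultures, against 104 ± 5.34 CPM in WT LPS cultures. In fits added after the data were seen, all calls of list genes under SAHA were lost without SAHA replicate 2. Most of those in KOKI over WT LPS were lost without KOKI replicate 2. Each of these fits left a group with 1 library and called fewer of all genes as well, so the losses were not particular to the lists.

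**Figure D4:**
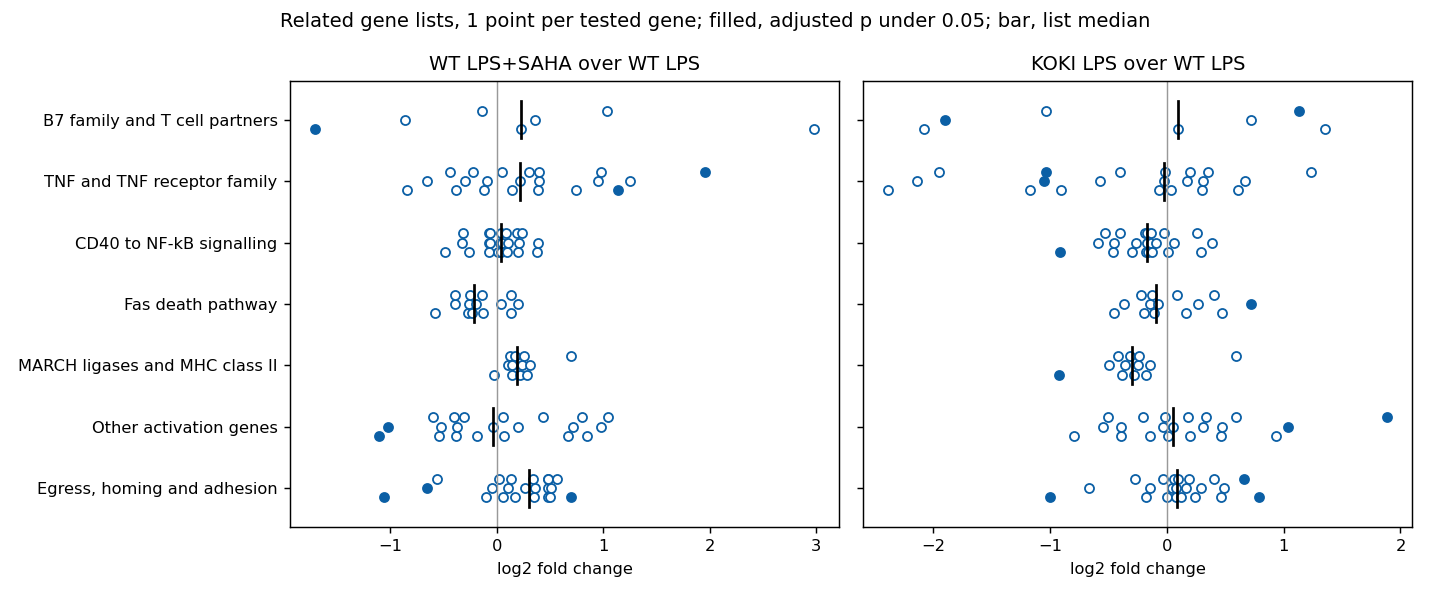
Log2 fold changes of the genes in the 7 related lists under SAHA (left) and in KOKI cultures (right), each over WT LPS. Each point is 1 tested gene, filled where the edgeR adjusted p was under 0.05, and each bar is the list's median. Most points are open, and in KOKI cultures the MARCH and MHC class II list has its median at -0.30.

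The 8 genes did not vary as 1 block over the 6 splenic libraries. Pearson's r of log2(CPM + 1) was 0.991 between Cd86 and Fas, 0.956 between Fas and Icosl and 0.952 between Cd86 and Icosl. Cd44 went opposite to this trio, with r of -0.982 to Fas, -0.979 to Cd86 and -0.977 to Icosl. Cd69 and Cd80 were at 0.889, and Cd40 reached at most 0.649 with any of the others. These values describe 6 libraries in 3 groups, and the group differences enter them. Among 8387 genes with a mean of at least 10 CPM, the 3 most like Icosl were Nprl3, Bin1 and Parp8, the 3 most like Cd86 were Pddc1, Dok3 and Fxyd5, and the 3 most like Fas were Snx8, Pde4b and Pex5, all at r of 0.99 or more. Those most like Cd69 were Zfp607, Casp4 and Dync1li2, and those most like Cd83 were Lpcat3, Gnpat and Ppme1. Cd44 was most like Rexo2, Lactb2 and Tmem242, and Cd80 most like Mettl6, Ccdc71l and Ppcdc. Cd40 had 5 genes over r of 0.95, the fewest of the 8, with Rdh13 first, against 213 for Cd44 and 172 for Icosl.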

How the data were processed

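The labels' protocols name the miRNeasy kit for RNA and the TruSeq Stranded Total RNA kit, which keeps strand, for libraries. The authors deposited raw counts of reads per gene in 1 table for all 10 libraries. Per the submitters' processing notes, the tools included STAR 2.4.0a and featureCounts of Subread 1.4.6-p1, with the build mm10 (GRCm38). Not given in the sources used here are the strand setting and how reads with several matches were counted. No exon of the 8 genes overlaps one of another gene in the deposited coordinates. The 100 spike-in and phiX entries, with 1 to 17 counts per library, were left out.

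The main test was the quasi-likelihood F test of edgeR 4.0.16 (R 4.3.3) on counts scaled by TMM. Genes were kept by filterByExpr, which asked for 10 counts and a total of 15, and p-values were adjusted by Benjamini-Hochberg over all genes tested. A gene was called at an adjusted p under 0.05. The 3 splenic comparisons came from 1 fit of 6 libraries, the femoral one from 4 libraries, and the tests across tissues from all 10 in 6 groups, where the spread of each single pool was taken from the groups of 2. CPM and RPKM are on the TMM scale of all 10 libraries, marker sums on plain totals. SE is the size of the log2 change divided by the square root of F. Alternatives included DESeq2 1.42.0, RLE scaling, no filter and leaving out each library. The fits were tested on simulated data. In splenic pairs the chi-square per degree of freedom over genes was 92.6 to 161, so none was a copy of another. The precision of these counts covers counting error only, and reads carry no molecular identifiers.

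The 8 genes, the lists and the tests were chosen with earlier results of these data known. Named genes are the 8, up to 4 called genes per list and splenic comparison with the largest change, and the 3 most correlated genes for each of the 8. Results of some list genes are not reported here.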

Additional observations from a re-analysis of the deposited data

Results flagged for a closer look

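The difference between the KOKI effect in spleen and in femur was flagged for Icosl, because the interaction term itself passed. Icosl had 11.1 and 11.6 CPM in KOKI LPS cultures, against 34.5 and 38.7 CPM in WT LPS cultures, and 19.8 and 16.2 CPM in femoral KOKI pools, against 19.1 and 19.7 CPM in femoral control pools. The splenic change minus the femoral change was -1.57 ± 0.25 log2 (adjusted p = 0.0167, edgeR). The femoral libraries were uncultured, and their 8 mature B cell markers summed to only 11.8 to 15.1 CPM; the part of either in the difference was not tested. No other of the 8 genes passed this test.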

How the results depend on the processing

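Over 560 recomputed log2 changes of the 8 genes, 508 kept direction and side of the threshold, 32 lost the call, 3 gained it and 17 changed sign. The cause was not tested for any of them. Icosl in KOKI over WT LPS, Icosl and Cd86 in KOKI over SAHA, and the 5 spleen over femur calls held throughout. Where a fit left a group with 1 library, its spread was taken from the other groups. Of 568 recomputed changes of named list genes, added after the data were seen, 416 kept direction and side of the threshold, 152 lost the call and 0 changed sign. Counting error is largest for the genes with the fewest counts, in spleen Cd80, at 95 to 271 counts per library, and Fas, at 91 to 218.

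Under SAHA, the number of the 8 genes called was 0 with all 10 libraries, 0 with the compared libraries alone, 0 in every fit that left out a library, and 2 with the replicate block in the compared libraries alone. Leaving out a library gave 1 to 3 in KOKI over WT LPS, 2 to 4 in KOKI over SAHA, 5 to 6 in spleen over femur and 0 to 1 in the interaction, where no filter gave 2. WT LPS and SAHA cultures share the numbers 1 and 2, but nothing ties a number to an animal. Deviations of same-numbered libraries from their group means correlated at 0.454 over 15342 genes. With 2 libraries per group, the second pair mirrors the first, so the value comes from 1 comparison. With this replicate block Icosl stayed called (adjusted p = 0.00784), and with the compared libraries alone Cd86 was called as well (0.0212).

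All sign changes were of uncalled values. Each is given as the log2 range over the fits without 1 library, followed by the value in the report. Under SAHA, Cd80 ran from -0.76 to 0.10 (reported -0.37), Cd69 from -0.39 to 0.11 (reported -0.15) and Cd40 from -0.25 to 0.042 (reported -0.088). In KOKI over SAHA, Cd40 ran from -0.31 to 0.033 (reported -0.16). In femur, Cd40 ran from -0.59 to 0.32 (reported -0.084), Icosl from -0.24 to 0.042 (reported -0.11) and Cd86 from -0.16 to 0.26 (reported 0.03), and on the matched background Cd40 was at 0.30 and Icosl at 0.025. In spleen over femur, Cd69 ran from -0.17 to 0.41 (reported 0.18). In the interaction, Cd40 ran from -0.57 to 0.35 (reported -0.11) and Fas from -0.33 to 0.011 (reported -0.16).

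Counts over all genes moved more. Under SAHA the 712 became 1721 (DESeq2), 1970 (no filter), 211 (all 10 libraries), 0 (compared libraries alone, with 3765 at an unadjusted p under 0.05), 2013 (replicate block), 3413 (block, compared libraries alone) and 0 to 290 without 1 library. In KOKI over WT LPS the 626 became 1097 (DESeq2), 1254 (no filter) and 270 to 708. In KOKI over SAHA the 3639 became 1703 to 3463 without 1 library. In femur the 5 became 688 (DESeq2), 0 (RLE, all 10 libraries, matched background), 662 (no filter) and 13 to 3456. In the interaction the 171 became 543 (DESeq2), 950 (no filter), 66 (matched background) and 45 to 566.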
